A study of Mus musculus with 6 samples.

Results

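The genes described here are the 77 genes of bicarbonate, chloride and water transport in the mouse duodenum, among 23699 rows of the gene tables. They were chosen by symbol: every Slc4a, Slc9a, Slc12a, Slc26a, Car, Aqp, Atp1a and Atp1b family gene, together with Cftr, Best2, Guca2a, Guca2b and Gucy2c. RNA was sequenced from the whole wall of the duodenum, a 2 cm piece next to the stomach, in 6 mice aged 6 weeks, all on a mixed background, with 1 library each. The 3 controls were Nkx2.2flox/+, and controls 1 and 2 also carried Rosa26Tomato/+, which control 3 did not. The 3 mutants, called TNint, were Nkx2.2flox/TN with Villin-Cre/+ and Rosa26Tomato/+. Nkx2.2 is a transcription factor of enteroendocrine cell fate, TN is an allele with a mutated tinman domain, and Villin-Cre is a recombinase, active in the intestinal epithelium, that removes the floxed allele there. Every animal carried a floxed allele, and the groups differed in the TN allele, in Cre and in the number of intact Nkx2.2 copies, whose effects cannot be told apart here. The comparison asks how duodenal transcripts differ when the epithelium is left with the TN allele.

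The duodenum neutralises gastric acid with bicarbonate that its epithelium secretes. The sodium-potassium pump in the basolateral membrane drives the entry of sodium, chloride and bicarbonate into the cell, carbonic anhydrases supply bicarbonate from carbon dioxide, and apical channels and exchangers pass it into the lumen while water follows. Guanylin and uroguanylin are peptides released by the epithelium that bind the receptor guanylate cyclase C, whose product cyclic GMP opens the channel Cftr and inhibits sodium uptake through the exchanger Slc9a3.

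Levels are given as FPKM, which divides the fragments of a gene by its transcript length and by the size of the library, so they can be compared between genes. A difference between mutants and controls is a log2 fold change on the log2(FPKM + 0.1) scale, which understates the change of genes near 0.1 FPKM, and it was tested with limma over all 15864 rows with a mean of at least 0.1 FPKM. Of the 77 genes, 61 were tested. Of the other 16, Slc4a1, Slc26a7, Car1, Aqp2, Aqp6 and Atp1b4 were listed at 0 in all 6 libraries, and Slc4a9, Slc9a10, Slc12a1, Slc12a3, Slc26a1, Slc26a4, Slc26a5, Slc26a9, Car10 and Atp1a4 had mean levels below the filter.

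The promoters of Guca2a and Guca2b are shown because both ligand genes, which lie on chromosome 4, had higher means in mutants in the results given further on. Each line holds the 250 bases before the RefSeq start site, on the gene's own strand in build GRCm38.p6, at chr4:119637482-119637731 (plus strand) for Guca2a and chr4:119658946-119659195 (minus strand) for Guca2b. Capitals mark a match to 1 of 4 motifs, which were searched on both strands and do not overlap each other here. The core of a site for the factor HNF1 was searched as GTTAAT. The box bound by the general transcription machinery was searched as TATAAA. The core of a site for the factor HNF4 was searched as CAAAGT. The letters TTTATG were searched as a site for the intestinal CDX factors.
Guca2a: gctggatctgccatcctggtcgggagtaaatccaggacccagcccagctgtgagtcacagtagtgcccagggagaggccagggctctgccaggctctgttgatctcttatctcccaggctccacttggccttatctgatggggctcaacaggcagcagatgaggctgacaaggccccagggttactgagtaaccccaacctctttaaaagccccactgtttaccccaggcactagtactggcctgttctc
Guca2b: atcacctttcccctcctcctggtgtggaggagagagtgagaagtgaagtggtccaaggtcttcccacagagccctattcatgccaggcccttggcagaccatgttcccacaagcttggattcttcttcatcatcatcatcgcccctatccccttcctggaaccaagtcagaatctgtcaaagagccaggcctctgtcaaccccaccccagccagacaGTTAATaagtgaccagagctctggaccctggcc
The Guca2b window held 1 match, GTTAAT, whose first base lies at position -33 from the start site, and the Guca2a window held no match. Of 32851 promoter windows of the same length in the table, 6.43% held the HNF1 core, 12.4% the TATA box, 10.8% the CDX site and 12.6% the HNF4 core. These matches describe letters only.

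Depth overlapped between the groups, with 14.21 to 21.25 M reads implied by the confidence intervals in controls and 16.88 to 25.91 M in mutants. Nkx2-2, the targeted gene, was at 1.00, 1.03 and 1.27 FPKM in controls and 0.748, 0.744 and 0.666 FPKM in mutants, so the groups did not overlap (log2 fold change -0.54, SE 0.16, limma adjusted p = 0.786). The dissected tissue had high levels of the 10 enterocyte markers, led by Apoa1 and Fabp1, and kidney and liver markers summed to at most 4.13 FPKM. The 18 rows of 15 pancreatic acinar markers, led by Ctrb1 and Cela2a, set libraries apart: they summed to 235, 802 and 15106 FPKM in controls 1 to 3 and to 3829, 4068 and 16419.7 FPKM in mutants 1 to 3. The 10 smooth muscle markers, led by Acta2 and Tagln, summed to 738 to 1002 FPKM in controls and 557 to 717 FPKM in mutants, and 9 of them were lower in mutants at a limma unadjusted p under 0.05. In tissue of this kind, fewer cells of a type and less RNA per cell cannot be told apart.

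In controls the pump subunit gene Atp1b1 and the uroguanylin gene were among the most abundant. Mean levels were at least 100 FPKM for 7 genes, from 10 to 100 FPKM for 22, from 1 to 10 FPKM for 16 and below 1 FPKM for 32. The uppermost level held Atp1b1 (1032 ± 85.9 FPKM, SD, n = 3), Guca2b (555 ± 143), Slc26a6 (269 ± 31.7), Car2 (185 ± 71.6), Slc4a7 (143 ± 23.2) and Slc26a3 (103 ± 18.1). Gucy2c (99.4 ± 1.33 FPKM) and Guca2a (88.4 ± 7.81) came next. Much of the finer order lies within the spread of the libraries: of the 19 pairs of neighbours among the first 20 genes, 14 overlapped over the 3 control libraries. Pairs that did not overlap were Atp1b1 above Guca2b, Guca2b above Slc26a6, Slc26a6 above Car2, Slc4a7 above Slc26a3, and Gucy2c above Guca2a. Cftr was at 33.7 ± 7.01 FPKM, and its control values overlapped those of Atp1b3 above it and Aqp1 below it.

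**Figure D1:**
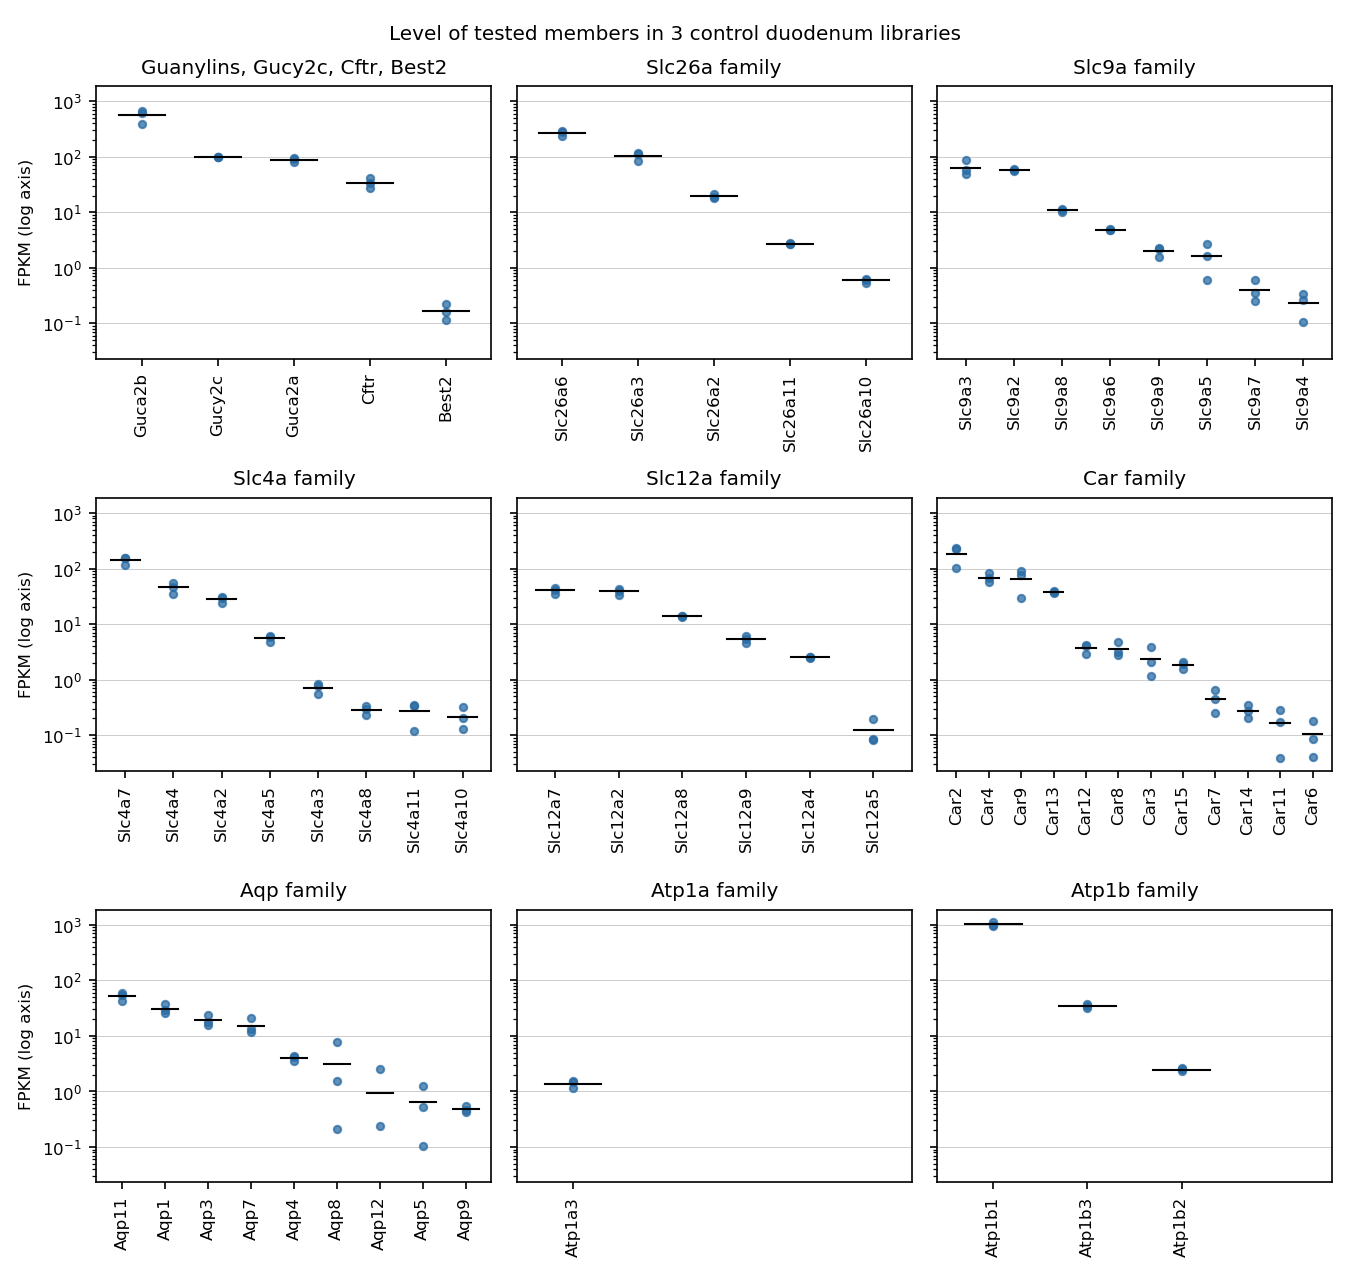
FPKM of 57 of the 61 tested genes in the 3 control libraries, on a log axis, by family and in order of control mean. Points are libraries and bars are means; values of 0, such as Aqp12 in control 1, are not drawn. Of the genes drawn, Atp1b1 (mean 1032 FPKM) lies highest, and most families run from 1 or 2 abundant genes down to genes under 1 FPKM.

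Most families were carried by few genes. Slc26a6 made up 68.1% ± 0.928 (SD, n = 3) of the control Slc26a sum and Slc26a3 25.98% ± 1.59, and both are exchangers of chloride for bicarbonate. Atp1b1 was 96.5% of the pump's beta subunit transcripts, with Atp1b3 at 3.23%. Slc9a3 and Slc9a2 held near equal shares of the Slc9a sum, 40.4% ± 6.72 and 37.2% ± 4.57. Slc4a7 held 63.8% of the Slc4a sum, ahead of Slc4a4 at 20.3% and Slc4a2 at 12.7%. Slc12a7 (35.2%) and Slc12a2 (33.7%) led the Slc12a family with shares close to each other. Car2 held 48.8% ± 11.4 of the Car sum, and Aqp11 held 41.0% ± 4.44 of the Aqp sum before Aqp1 (24.9% ± 6.53), Aqp3 (15.1% ± 1.73) and Aqp7 (11.8% ± 2.37).

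**Figure D2:**
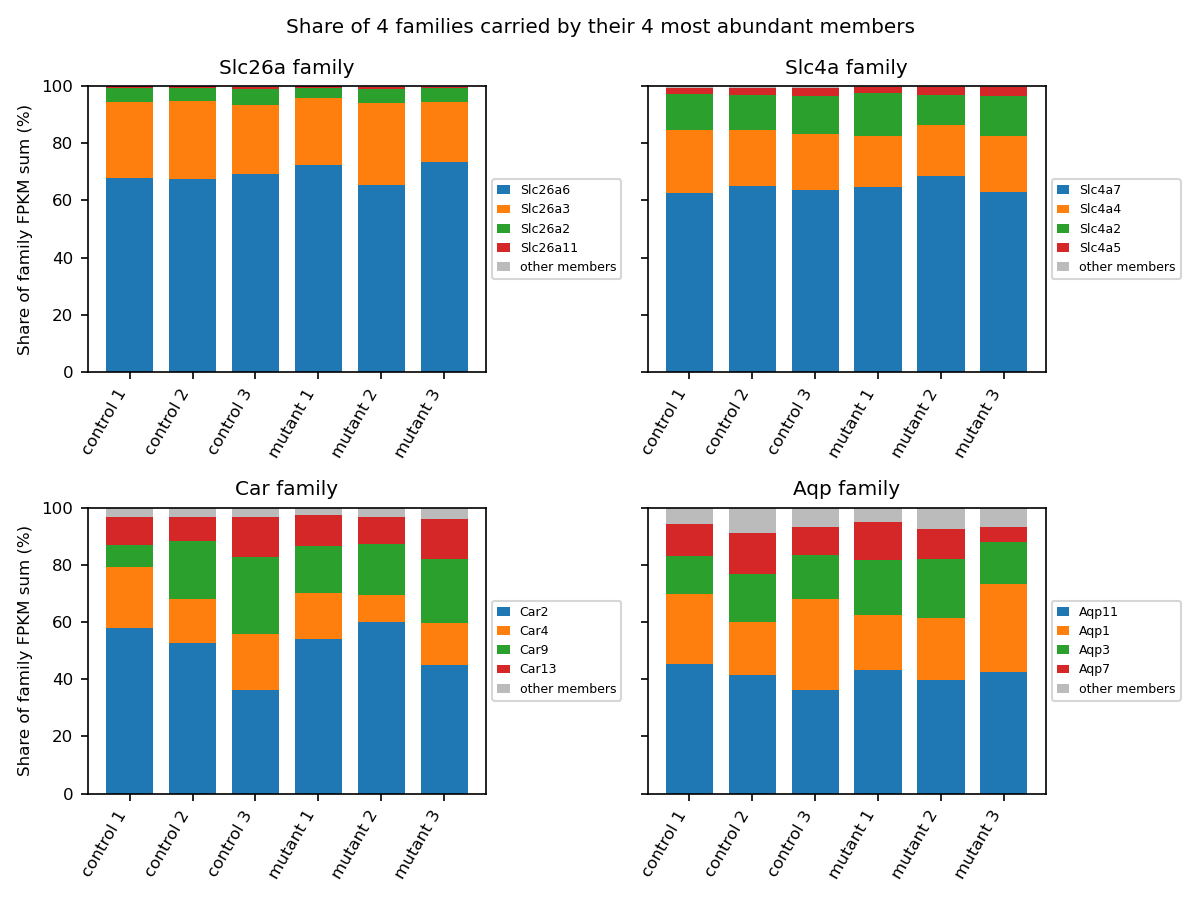
Share of the FPKM sum (%) of the Slc26a, Slc4a, Car and Aqp families held by the 4 most abundant genes of each, in each of the 6 libraries; the grey top is the sum of the other genes of the family. Slc26a6 holds 65.5% to 73.5% of its family in every library, whereas the share of Car2 runs from 36.0% to 59.9%.

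Between mutants and controls no gene of the set passed the test. The count was 0 of 61 at an adjusted p under 0.05 in limma, where 0% of all rows passed, and the smallest adjusted p was 0.786 in the set against 0.255 over all rows. At an unadjusted p under 0.05, 0 of 61 were higher in mutants beside 1.49% of all rows, and 2 of 61 (3.28%), Best2 and Car4, were lower beside 4.32% of all rows. Best2 passed the filter only through its control values, so its place in this count depends on the group where it was higher. Over all rows the same threshold gave 237 higher and 685 lower, a split that turned to 503 and 405 when libraries were scaled by trimmed means. The authors' deposited DESeq table held 71 of the genes and called 0 of them at its adjusted p, beside 7 of all 18541 rows (0.0378%). Among the 61 genes the median log2 fold change was -0.05, as it was over all rows, and 40 (65.6%) had a negative value beside 61.3% of all rows, against 30 of 61 with trimmed mean scaling. Of 45 genes with a control mean of at least 1 FPKM, 2 (4.44%, Car4 and Car3) had a log2 fold change of 0.5 or more in size, beside 2.76% of all such rows. Of 29 genes with a control mean of at least 10 FPKM, 23 (79.3%) had one below 0.25 in size, beside 92.9% of all such rows.

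Deviations of same-numbered control and mutant libraries correlated at 0.11, 0.21 and 0.39, a pairing taken from these same data and not from the labels. Control 1 correlated more with mutant 2, at 0.13. A block chosen this way can lower p-values in the same data, so those with the block, here and below, are no separate support. A fit with the replicate number as a block gave more genes at an unadjusted p under 0.05. It gave 3 higher genes (4.92%: Guca2a, Guca2b and Aqp12) beside 2.81% of all rows, and 4 lower genes (6.56%: Car4, Slc9a3, Car3 and Best2) beside 5.09%. None passed the adjustment with the block, beside 2 of all 15864 rows, and the smallest adjusted p of these 7 genes was 0.606 in limma. With the smooth muscle markers as a covariate, 1 gene, Aqp12, was higher (1.64%) beside 2.81% of all rows. Lower genes numbered 5 (8.20%: Slc26a3, Slc4a7, Slc26a2, Slc4a11 and Slc4a4) beside 9.77%. The sums of these markers were lower in every mutant than in every control, so that covariate and group can hardly be told apart. Values fitted with it, here and below, do not show how much of a difference is muscle. With the acinar markers as a covariate, 1 gene, Guca2a, was higher (1.64%) beside 2.43% and 0 were lower beside 3.16%.

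**Figure D3:**
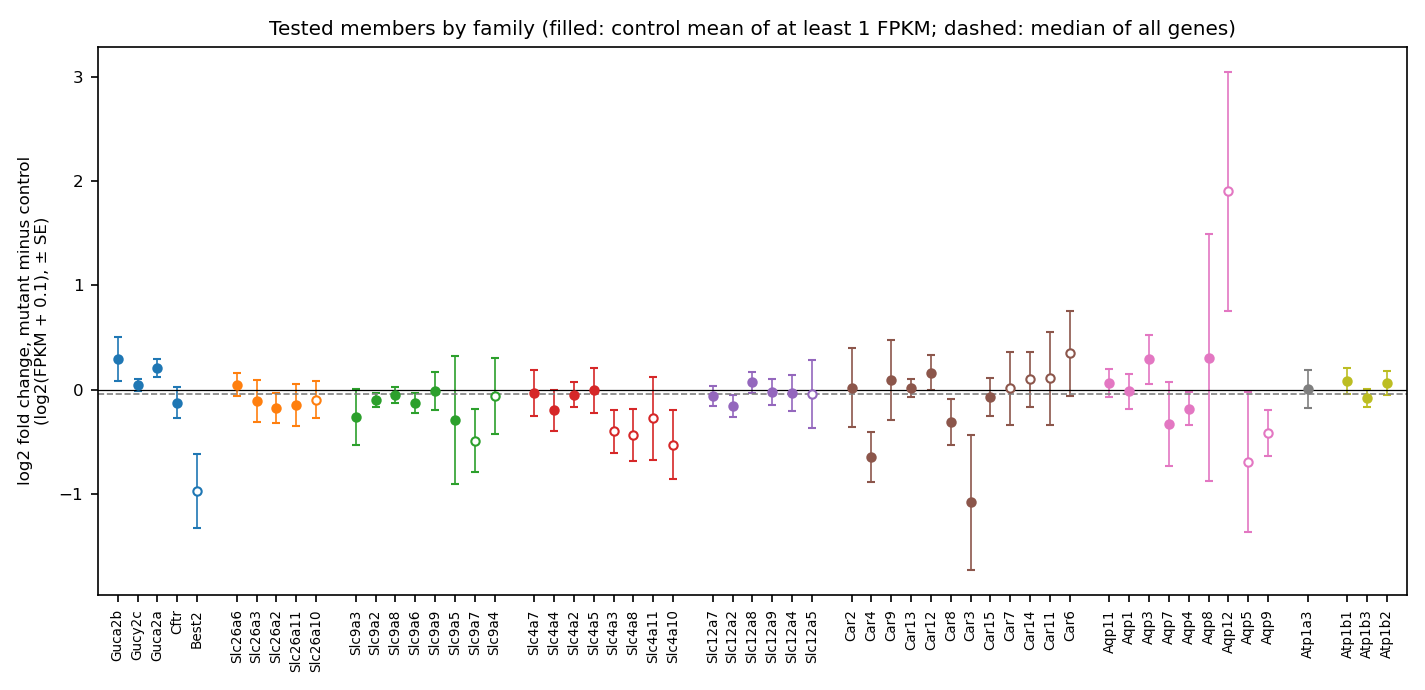
Log2 fold change of 57 of the 61 tested genes, mutant minus control on the log2(FPKM + 0.1) scale, with SE bars; colours mark families, open circles mark genes with a control mean under 1 FPKM, and the dashed line is the median of all rows (-0.05). Filled points lie near 0 apart from Car4 at -0.65 and Car3 at -1.08, and the widest bars belong to Aqp8 and Aqp12.

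Both ligands of guanylate cyclase C had higher means in mutants, and the receptor was near level. Guca2a, which encodes guanylin (chr4:119310309-119312076 in mm9, plus strand), was at 93.9, 91.7 and 79.4 FPKM in controls 1 to 3 and at 107, 102 and 96.3 FPKM in mutants 1 to 3. Every mutant value lay above every control value, which held for 1 of 61 genes (1.64%) and for 3.13% of all rows. The log2 fold change was 0.21 (SE 0.09, 95% interval -0.01 to 0.42), with a limma unadjusted p = 0.055 and adjusted p = 0.786, and the unadjusted p was 0.020 with the block. With the smooth muscle markers as a covariate the Guca2a value was 0.03 (limma unadjusted p = 0.861), and with the acinar markers it was 0.30 (limma unadjusted p = 0.009). The smooth muscle sums set the groups fully apart, so the first value cannot tell muscle content from group. Guca2b, which encodes uroguanylin (chr4:119329212-119331559, minus strand), was at 391, 656 and 619 FPKM in controls and 573, 742 and 685 FPKM in mutants. Control 1 was the lowest of the 6 and mutant 1 the lowest of its group, and the groups overlapped. Its log2 fold change was 0.29 (SE 0.21, 95% interval -0.22 to 0.80), with a limma unadjusted p = 0.216 and 0.041 with the block, and it was 0.06 without control 1, 0.07 with the acinar covariate and 0.72 with the smooth muscle covariate. The ratio of Guca2b to Guca2a was 6.37 ± 1.93 in controls and 6.59 ± 1.09 in mutants (SD, n = 3).

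Gucy2c, the receptor guanylate cyclase C (chr6:136645806-136730286, minus strand), was at 100.2, 100.2 and 97.9 FPKM in controls and 99.6, 105 and 103 FPKM in mutants. The 6 values lay close together and the groups overlapped. The log2 fold change was 0.04 (SE 0.06), and the 95% interval from -0.10 to 0.19 bounds a difference in either direction.

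Cftr, the apical channel for chloride and bicarbonate (chr6:18120687-18272768, plus strand), was at 33.1, 27.1 and 41.1 FPKM in controls and 29.7, 29.3 and 32.4 FPKM in mutants. The mutant values lay inside the control range, whose highest value was control 3. The log2 fold change was -0.13 (95% interval -0.48 to 0.22), and it was 0.02 without control 3. Best2, a calcium-activated channel that passes bicarbonate and is known from colonic goblet cells (chr8:87531101-87538307, minus strand), was at 0.161, 0.220 and 0.115 FPKM in controls. In mutants it was listed at 0, 0.0881 and 0.0260 FPKM, below every control, as held for 3 of 61 genes (4.92%: Best2, Aqp9 and Slc4a8) and for 9.92% of all rows. The intervals imply 1.6, 5.6 and 1.6 reads in controls and 0, 1.6 and 0.4 in mutants, so the log2 fold change of -0.97 (SE 0.35, limma unadjusted p = 0.029, adjusted p = 0.786) rests on a handful of reads, and it was -2.37 with a pseudocount of 0.01 and -0.17 with a pseudocount of 1. Best2 cleared the filter of 0.1 FPKM only through the controls, with means of 0.165 FPKM in controls and 0.0380 FPKM in mutants. Its p-value and its place in the counts therefore depend on the group where it was higher.

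**Figure D4:**
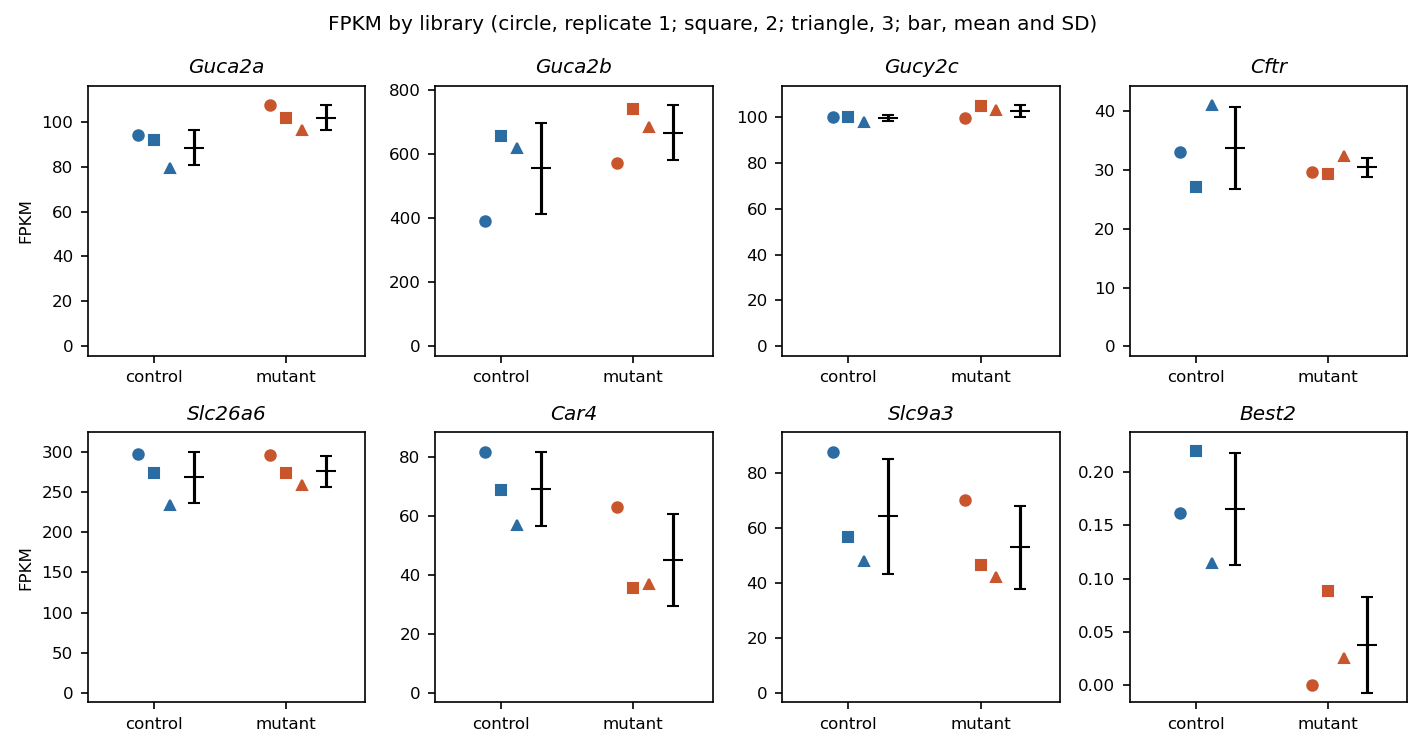
FPKM by library for 8 genes on linear axes that include 0: circles, squares and triangles are replicates 1, 2 and 3, blue is control and orange is mutant, and the black bar is the mean with its SD (n = 3). The groups are apart for Guca2a and Best2, and they overlap for the other 6 genes.

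The apical exchangers of chloride for bicarbonate had close levels in both groups. Slc26a6 (chr9:108756368-108764472, plus strand) was at 297, 274 and 235 FPKM in controls and 297, 273 and 258 FPKM in mutants. Replicates 1 to 3 had nearly the same values in each group, and the log2 fold change was 0.04 (95% interval -0.22 to 0.31). Slc26a3, the exchanger whose loss causes congenital chloride diarrhoea, was at 115, 111 and 82.2 FPKM in controls and 96.6, 119 and 73.1 FPKM in mutants, with replicate 3 the lowest of both groups (log2 fold change -0.11, 95% interval -0.59 to 0.37). The sulfate transporters Slc26a2 (log2 fold change -0.18, SE 0.15) and Slc26a11 (-0.15, SE 0.20) also overlapped between groups. Slc26a4, the exchanger pendrin, was below the filter at 0, 0.0329 and 0.0175 FPKM in controls and 0.0831, 0.108 and 0.0957 FPKM in mutants, and it is named after its values were seen. All mutants were above all controls at these levels, as held for 3.13% of the tested rows, which do not include Slc26a4. The intervals imply 0, 2 and 1 reads in controls and 4, 8 and 6 in mutants, so the order rests on few reads. The authors' deposited table gave it a log2 fold of 2.75 at an unadjusted p-value of 0.0402 and an adjusted p-value of 1.

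None of the sodium-proton exchangers passed the test. Slc9a3, the apical exchanger of sodium absorption (chr13:74258963-74303512, plus strand), was at 87.6, 56.6 and 48.1 FPKM in controls and 70.2, 46.6 and 42.0 FPKM in mutants. The groups overlapped, but each mutant lay below the control of the same number, a match taken from these data and not from the labels. Its log2 fold change was -0.27 (SE 0.27, 95% interval -0.90 to 0.37), with a limma unadjusted p = 0.356 and 0.007 with the block, and it was -0.02 without control 1, 0.07 with the acinar covariate and -0.90 with the smooth muscle covariate. Slc9a2, a second apical exchanger, was steady at 59.1, 55.8 and 57.1 FPKM in controls and 55.9, 54.3 and 50.6 FPKM in mutants (log2 fold change -0.10, SE 0.07). Slc9a8, an exchanger of the same family, differed by -0.05 (SE 0.08). Values were negative for all 9 tested Slc9a genes (median -0.10) as deposited, but for 6 of 9 with trimmed mean scaling and 5 of 9 with quantile normalisation.

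Basolateral entry of bicarbonate and chloride showed the same range of small differences. Slc4a7, an electroneutral sodium-bicarbonate cotransporter, was at 155, 158 and 116 FPKM in controls and 129.7, 189 and 109 FPKM in mutants. Replicate 3 was the lowest of both groups and mutant 2 the highest of all (log2 fold change -0.03, SE 0.22). Slc4a4, the electrogenic cotransporter, was at 54.8, 47.4 and 35.4 FPKM in controls and 36.1, 49.1 and 34.1 FPKM in mutants (-0.20, SE 0.20). Slc4a2, the anion exchanger AE2, had a difference of -0.05 (SE 0.12) and Slc4a5 of -0.01 (SE 0.22). Values were negative for all 8 tested Slc4a genes (median -0.24) as deposited, for 5 of 8 with trimmed mean scaling and for 7 of 8 with quantile normalisation. The 4 genes below 1 FPKM (Slc4a3, Slc4a8, Slc4a10 and Slc4a11) had the lowest values, from -0.28 to -0.53. Slc4a8, named after its values were seen, was at 0.233, 0.290 and 0.331 FPKM in controls and 0.232, 0.181 and 0.142 FPKM in mutants. Control 1 and mutant 1 were almost equal. The authors' deposited table gave Slc4a8 a log2 fold of -0.57 with an unadjusted p-value of 0.0367 and an adjusted p-value of 1.

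Slc12a2, the sodium-potassium-chloride cotransporter that loads secretory cells with chloride, was at 42.9, 33.5 and 39.9 FPKM in controls and 35.1, 32.9 and 35.6 FPKM in mutants. The groups overlapped through control 2, and the log2 fold change was -0.16 (95% interval -0.40 to 0.08). The potassium-chloride cotransporter Slc12a7 (-0.06, SE 0.09) and the less studied Slc12a8 (0.07, SE 0.10) also overlapped between groups.

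Among the carbonic anhydrases, Car4 had a lower mean in mutants. Car4, which is anchored to the outer face of the apical membrane (chr11:84771288-84779546, plus strand), was at 81.6, 68.6 and 56.7 FPKM in controls and 63.0, 35.4 and 36.8 FPKM in mutants. Each mutant lay below the control of the same number, a match taken from these data and not from the labels. The groups overlapped because mutant 1 was above control 3. The log2 fold change was -0.65 (SE 0.24, 95% interval -1.22 to -0.08), with a limma unadjusted p = 0.032 and adjusted p = 0.786, and with the block the unadjusted p was 0.002 and the adjusted p was 0.606. Over all 17 alternatives the limma adjusted p ran from 0.475 to 0.991. Without 1 library at a time it ran from -0.92, without mutant 1, to -0.50, without mutant 2, and the unadjusted p stayed under 0.05 only without control 3 or without mutant 1. With the acinar markers as a covariate it was -0.43 with a limma unadjusted p = 0.125, and with the smooth muscle markers it was -0.88 with a limma unadjusted p = 0.119. Without a filter on low values the limma unadjusted p was 0.076. The muscle covariate can hardly be told apart from the group, and the part of pancreatic RNA or muscle in this difference was not tested otherwise. The share of Car4 in the Car sum was 18.9% ± 3.01 in controls and 13.3% ± 3.36 in mutants (SD, n = 3), and the authors' deposited table gave a log2 fold of -0.55 with an unadjusted p-value of 0.0417 and an adjusted p-value of 1.

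Car2, the main cytosolic enzyme, was at 221, 232 and 103 FPKM in controls and 214, 223 and 115 FPKM in mutants. Replicates 1 and 2 were near level and replicate 3 was far lower in both groups, and the log2 fold change was 0.02 with a wide 95% interval from -0.88 to 0.92. Car9, a transmembrane enzyme, was at 29.8, 89.0 and 77.2 FPKM in controls and 65.4, 66.1 and 57.1 FPKM in mutants, so that control 1 alone was low (log2 fold change 0.09, SE 0.38). Without control 1 the Car9 value was -0.40 (limma unadjusted p = 0.011, adjusted p = 0.991), and it was -0.33 with the acinar covariate and 1.08 with the smooth muscle covariate. The cytosolic Car13 was at 37.0 to 39.2 FPKM in controls and 35.8 to 43.0 FPKM in mutants (0.01, SE 0.09). Car3, an enzyme of muscle and fat named after its values were seen, was at 2.10, 3.84 and 1.15 FPKM in controls and 1.31, 1.85 and 0.313 FPKM in mutants, with a log2 fold change of -1.08 (SE 0.65). The 6 adipocyte markers summed to 68.3 to 95.1 FPKM in controls and 76.5 to 99.5 FPKM in mutants, and nearly all of this was Cidec, a lipid droplet protein, at 67.1, 92.4 and 68.6 FPKM in controls and 96.0, 98.2 and 76.1 FPKM in mutants. Cfd, the next most abundant, was at 0.995, 2.06 and 0.990 FPKM in controls and 0.419, 0.870 and 0.257 FPKM in mutants. Cfd had the order of Car3 within each group but not over the 6 libraries, and Cidec had a higher mean in mutants where Car3 had a lower one. The part of fat in the Car3 values was not tested.

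None of the aquaporins passed the test. Aqp11, an intracellular aquaporin, was at 54.6, 59.3 and 42.6 FPKM in controls and 56.3, 56.9 and 49.5 FPKM in mutants (log2 fold change 0.07, SE 0.13). Aqp1, a water channel known from endothelium, was at 26.4 to 37.0 FPKM in controls and 25.0 to 35.8 FPKM in mutants (-0.02, SE 0.17). The glycerol-permeable channels Aqp3 (0.29, SE 0.24) and Aqp7 (-0.33, SE 0.40) had differences of opposite sign, with overlapping groups. Aqp8, Aqp12 and Aqp5 varied most between libraries of a group, and they are named after their values were seen. Aqp8 was at 1.56, 7.77 and 0.211 FPKM in controls and 1.88, 4.84 and 0.686 FPKM in mutants, highest in replicate 2 and lowest in replicate 3 of both groups.

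Aqp12, an aquaporin of pancreatic acinar cells, was listed at 0, 0.243 and 2.53 FPKM in controls and 0.961, 1.11 and 3.60 FPKM in mutants. The acinar marker Ctrb1 was at 4.61, 87.3 and 2171 FPKM in the same controls and at 727, 648 and 3027 FPKM in the same mutants. The library with no Aqp12 was the one with the least Ctrb1, and replicate 3 was the highest of each group for both. The log2 fold change of Aqp12 was 1.90 (95% interval -0.82 to 4.63, limma unadjusted p = 0.142, and 0.013 with the block). Aqp5, a water channel of secretory glands, was at 1.27, 0.106 and 0.526 FPKM in controls and 0.267, 0.376 and 0.137 FPKM in mutants. The 5 genes listed for the submucosal Brunner glands and mucous cells, Aqp5 among them, summed to 149 to 699 FPKM in controls and 224 to 310.4 FPKM in mutants. In control 2, at 149 FPKM, most of the sum was Lyz2. Of the most abundant, Tff2 was at 510, 19.7 and 198 FPKM in controls and 174, 155 and 74.0 FPKM in mutants, and Lyz2 was at 169, 127 and 146 FPKM and at 132, 133 and 149 FPKM. Both had the order of Aqp5 in controls, and neither had it in mutants. Muc6 and Pgc of the same list, named after their values were seen, had the order of Aqp5 in both groups. Muc6 was at 15.7, 0.672 and 3.94 FPKM in controls and 2.71, 3.20 and 0.288 FPKM in mutants. Pgc was at 3.87, 1.57 and 2.10 FPKM in controls and 1.42, 2.67 and 0.625 FPKM in mutants. The part of pancreas and gland in the Aqp12 and Aqp5 values was not tested.

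The beta subunits of the pump differed little between overlapping groups. Atp1b1, which carries the pump to the membrane, was at 1014, 956 and 1125 FPKM in controls and 1186, 973 and 1119 FPKM in mutants (log2 fold change 0.08, SE 0.12). Mutant 1 was the highest of the 6 and control 2 the lowest. Atp1b3 had a difference of -0.09 (SE 0.09).

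Several genes differed more between replicate 3 and the other libraries than between the groups, a pattern noticed after the values were seen. Replicate 3 was the lowest of both groups for 16 of 61 genes (26.2%) beside 24.3% of all rows, and the highest of both for 6 (9.84%, among them Cftr, Aqp1, Aqp12 and Car11) beside 11.8%. Both shares are near those of all rows. Relative to the mean of replicates 1 and 2, replicate 3 had 0.455 times the Car2 level in controls and 0.527 times in mutants. The same ratios were 0.725 and 0.680 for Slc26a3, 0.744 and 0.684 for Slc4a7, 0.666 and 0.719 for Slc9a3, and 1.36 and 1.10 for Cftr. Beside these, the acinar marker sums were highest in replicate 3 of both groups, and the sums of the enterocyte markers were 19488, 31127 and 21023 FPKM in controls and 26872, 31486 and 22574 FPKM in mutants. The part of either in the pattern was not tested.

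**Figure D5:**
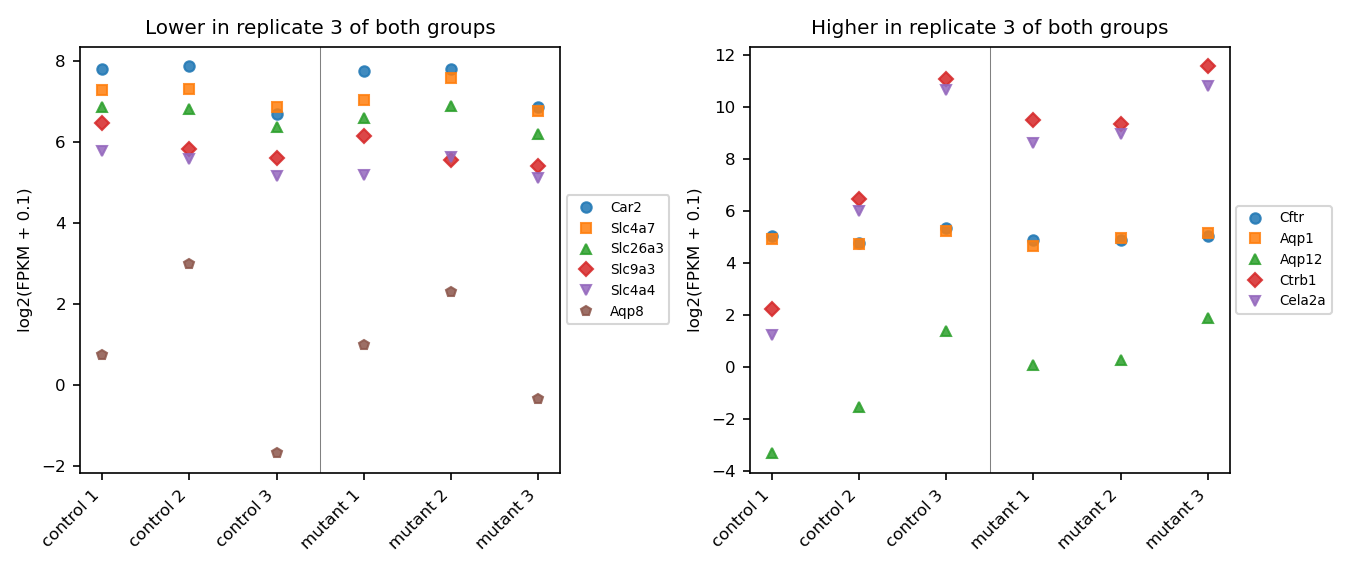
Level as log2(FPKM + 0.1) in each of the 6 libraries. The left panel shows 6 genes that were lowest in replicate 3 of both groups, Car2 among them; the right panel shows Cftr, Aqp1 and Aqp12 with the acinar markers Ctrb1 and Cela2a, which were highest there.

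Transcript tables show which form carried some of these genes, as assigned by the authors' quantification, which is uncertain between transcripts that share most of their sequence. Of the 77 genes, 14 had more than 1 transcript in the tables. All of the Gucy2c level was assigned to NM_001127318 in every library. NM_018760 held 65.7% to 94.7% of Slc4a4 in controls and 69.4% to 88.9% in mutants, with the rest on NM_001197147. NM_001253892 held 81.9% to 83.6% of Slc4a2 in controls and 84.9% to 87.9% in mutants. No test was made on transcripts. The annotation of mm9 places another gene over 20 of the 77 genes, among them Cftr, Car9 and Slc4a2, and reads of such pairs can be shared because the sources used here do not state that strand was used.

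Of 66 other genes of the pathway in 4 lists, 59 were tested, 0 passed an adjusted p under 0.05 in limma, 0 were higher beside 1.49% of all rows and 3 (5.08%) were lower beside 4.32% at an unadjusted p under 0.05, with a median log2 fold change of -0.03. Among the genes listed for chloride and potassium channels and their partners, 16 were tested (median -0.05). Ano1 is a calcium-activated chloride channel also known from the pacemaker cells of the gut muscle. It was at 3.13, 3.41 and 2.95 FPKM in controls and 2.09, 2.27 and 1.80 FPKM in mutants. Every mutant lay below every control, as held for 9.92% of all rows (log2 fold change -0.60, SE 0.13, limma unadjusted p = 0.002, adjusted p = 0.786). Clca4 (172, 147 and 143 FPKM in controls, 141, 148 and 151 FPKM in mutants) and Kcne3, a subunit of a basolateral potassium channel (0.06, SE 0.11), were the most abundant of the list, and Clca2 differed by -0.26 (SE 0.16). Among scaffolds and kinases (18 tested, median -0.02), Slc9a3r1 encodes the scaffold NHERF1 that binds Cftr and Slc9a3. It was at 411, 496 and 491 FPKM in controls and 516, 533 and 564 FPKM in mutants. All mutants were above all controls, as held for 3.13% of all rows (0.21, SE 0.10, limma unadjusted p = 0.087, adjusted p = 0.786). Pdzd3, a related scaffold, differed by 0.19 (SE 0.08), the membrane linker Ezr by 0.10 (SE 0.10), and the kinase Wnk1 by -0.19 (SE 0.08, limma unadjusted p = 0.049).

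Among receptors and second messengers (16 tested, median 0.01), Pde5a, the phosphodiesterase that degrades cyclic GMP and is abundant in smooth muscle, was at 20.1, 17.4 and 17.3 FPKM in controls and 14.7, 14.3 and 14.5 FPKM in mutants. All mutants lay below all controls, as held for 9.92% of all rows (log2 fold change -0.33, SE 0.08, limma unadjusted p = 0.005, adjusted p = 0.786). The smooth muscle markers were lower in the same libraries, at sums of 738, 872 and 1002 FPKM in controls and 647, 557 and 717 FPKM in mutants, and their part in the Ano1 and Pde5a values was not tested. Gnas, the stimulatory G protein, differed by -0.07 (SE 0.09), the receptor of vasoactive intestinal peptide Vipr1 by -0.05 (SE 0.11) and the secretin receptor Sctr, at under 0.5 FPKM, by -0.50 (SE 0.25). Among sodium entry and pump genes (9 tested, median -0.04), Slc5a1, the sodium-glucose cotransporter, was at 780.3 to 919 FPKM in controls and 815 to 907 FPKM in mutants (0.01, SE 0.11). The pump regulators Fxyd3 (0.15, SE 0.12) and Fxyd1 (-0.30, SE 0.19) and the pump-binding Nkain4 (-0.42, SE 0.33) overlapped between groups.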

How the data were processed

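Gene levels came from 6 duodenum libraries, 3 per group, made with the TruSeq RNA kit from RNA of integrity number above 8, per the labels' protocols. The submitters' processing notes name build mm9 and the tools CASAVA 1.8.2, TopHat, Cufflinks and DESeq; no other version is given in the sources used here. The deposited gene and transcript tables hold FPKM with confidence bounds, and the latter also hold coverage, per the file headers. A further table deposited by the authors holds DESeq group means of normalised counts as a signal, the fold as a ratio and as log2, and p-values. Groups came from the genotype labels.

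The members and lists were chosen with earlier results of these data known. limma 3.58.1 in R 4.3.3 was fitted with a trended variance on log2(FPKM + 0.1), keeping rows whose FPKM averaged 0.1 or more in the 6 libraries, with Benjamini-Hochberg adjustment over 15864 rows and a threshold of 0.05. It was checked on simulated data with independent noise, which hold none of the tissue or replicate patterns of these libraries. That check cannot show how the fit handles such patterns. Named genes were Cftr, Best2, the guanylins and Gucy2c, the 4 most abundant of each family, genes at an unadjusted p under 0.05, and, of each pathway list, the 2 most abundant and the 2 with the smallest p. Of each marker list the 2 most abundant could be named, with Nkx2-2. Some tested genes, although fitted and counted, are not reported here by name or drawn. Genes outside this rule are said to be named after their values were seen or are given only for a count. Reads behind a value were implied from the upper bound, 2 standard errors above it; 87.8% to 88.2% of these were whole numbers, give or take 0.05. Intervals and implied reads cover counting error and these 6 libraries only, and nothing in the labels says that replicates shared a litter. Deviations from the group means correlated at 0.11, 0.21 and 0.39 for replicates 1, 2 and 3, so the replicate number was taken to pair libraries; this comes from the data and not from the labels, and control 1 correlated at 0.13 with mutant 2. Alternatives were the pseudocount, the filter, scaling, the variance trend, library weights, the block, 2 marker covariates and leaving out each library.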

Additional observations from a re-analysis of the deposited data

How the results depend on the processing

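No gene of the set passed an adjusted p under 0.05 in limma in the reported analysis or in any of the 17 alternatives. Few of all rows passed either: 2 with the block, 2 without control 2, 3 without mutant 1, 2 without mutant 2, and 0 in the reported analysis and every other alternative. Higher genes at an unadjusted p under 0.05 numbered 0 as reported, 1 without a filter on low values, 1 with trimmed mean scaling, 1 with the acinar covariate, 1 with the smooth muscle covariate, and 0 to 1 without 1 library (1 without control 1, control 3 or mutant 3). The higher share of all rows was 1.49% as reported, 1.43% without a filter and 3.17% with trimmed mean scaling. It was 2.43% with the acinar covariate, 2.81% with the smooth muscle covariate, and 1.18% to 2.28% without 1 library. Lower genes numbered 2 as reported, 1 with a minimum mean of 1 FPKM, 5 without the variance trend, 0 with the acinar covariate, 5 with the smooth muscle covariate, and 0 to 5 without 1 library (1 without control 3 or mutant 1, 5 without mutant 2, 0 without mutant 3). Beside these, the lower share of all rows was 4.32% as reported, 4.57% with the minimum of 1 FPKM, 4.96% without the trend, 3.16% with the acinar and 9.77% with the smooth muscle covariate, and 2.47% to 5.64% without 1 library, highest without mutant 2. With the replicate number as a block, 3 genes were higher (4.92%) and 4 lower (6.56%), beside 2.81% and 5.09% of all rows. The block changed no other call of the set. Over all rows 237 were higher and 685 lower at this threshold, against 503 and 405 once libraries were scaled by trimmed means and 360 and 431 after quantile normalisation. The smooth muscle covariate moved the median log2 fold change from -0.05 to -0.13 over all rows and to -0.24 in the set. Of the 35 genes of the set that the naming rule gave, 34 were fitted under all 17 alternatives: 10 of these kept their sign, Guca2a, Guca2b, Car4, Slc9a2 and Slc12a2 among them, and 24 changed sign under at least 1. Best2 kept its sign in the 13 in which it was fitted; it was below the filter with a minimum of 1 FPKM and without any 1 control. The cause of these shifts was not tested. Depth limits Best2 and other genes below about 0.1 FPKM, which rest on few reads.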
